A study of Mus musculus with 23 samples.

Results

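Astrocyte markers are genes by which astrocytes are recognised in brain tissue, and 10 of them were followed in the hippocampal CA3 region of UBB+1 tg mice and wild-type mice. They are Gfap, Aqp4, Aldh1l1, Sox9, Id3, Ntsr2, Mlc1, Gjb6, Glul and Fgfr3, and a gene was counted when a probe set was annotated to it and to no other gene. All 10 were measured, by 19 probe sets, of which 16 were on the MOE430A array and 3 on the MOE430B array. By the same annotation 18192 genes had a probe set of their own on the arrays. UBB+1 tg mice were heterozygous mice of 1 line, which express human UBB+1, a frameshifted ubiquitin B, on a C57BL/6J background, and the wild-type mice were their littermates without the transgene. All mice were 18 months old, no treatment was given, and the sex of the mice on the arrays is not stated. The CA3 region was cut by laser from sections stained with cresyl violet, and 5 ng of total RNA were amplified in 2 rounds before hybridisation. MOE430A was hybridised with 6 UBB+1 tg and 5 wild-type mice and MOE430B with 6 and 6, of which 11 mice were on both arrays. Mice are named by genotype and number, such as tg270 and wt289. The transgene is a single line under the CaMK2α promoter, which is active in excitatory forebrain neurons and not in astrocytes. The cut tissue held these neurons as well as astrocytes. The labels were checked on a MOE430A probe set that reads a transcribed stretch of this promoter in the transgene, and that was kept out of all other tests. It was at 8.45 to 9.34 in the 6 UBB+1 tg mice and at 6.41 to 6.85 in the 5 wild-type mice (log2 RMA intensity). The difference was 2.37 with no overlap (exact permutation p = 0.00433, two-sided by doubling the smaller tail, the smallest p of this form).

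Astrocytes take up transmitter and potassium, pass metabolites and water between vessels and neurons, and are joined into a network by gap junctions. In response to injury or protein aggregates they become reactive, a state best known for a rise of the intermediate filament protein GFAP. In the hippocampus they surround the pyramidal neurons and their synapses in every layer. The 10 genes cover several of their functions. Gfap encodes the filament protein, Sox9 and Id3 encode regulators of transcription, Ntsr2 and Fgfr3 encode receptors, Aqp4, Mlc1 and Gjb6 encode membrane and junction proteins, and Glul and Aldh1l1 encode enzymes.

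Promoter windows from RefSeq on GRCm38.p6, from 250 bases before to 50 bases after a gene's start, were at hand for 8 of the 10 genes. Sox9 and Aqp4 had no entry. Id3 and Ntsr2 were picked for their correlation between mice (below), which did not pass the adjustment over the pairs of markers. The windows of Gfap, the marker most used for astrocytes, and of Id3 and Ntsr2 are shown 5′ to 3′ on the strand of the gene. They lie at chr11:102897151-102897450 (minus strand), chr4:136143572-136143871 (plus strand) and chr12:16653220-16653519 (plus strand). Capitals mark matches on either strand to TTCNNNGAA (the motif of STAT factors) or CANNTG (the E-box), and no window matched ACAAAG (a SOX motif) or the motif of NFI factors.
Gfap: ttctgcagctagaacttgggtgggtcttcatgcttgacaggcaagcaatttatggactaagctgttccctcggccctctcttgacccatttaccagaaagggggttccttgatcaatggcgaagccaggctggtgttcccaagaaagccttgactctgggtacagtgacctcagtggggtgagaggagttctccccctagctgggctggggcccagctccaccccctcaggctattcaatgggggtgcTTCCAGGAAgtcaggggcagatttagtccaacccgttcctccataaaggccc
Id3: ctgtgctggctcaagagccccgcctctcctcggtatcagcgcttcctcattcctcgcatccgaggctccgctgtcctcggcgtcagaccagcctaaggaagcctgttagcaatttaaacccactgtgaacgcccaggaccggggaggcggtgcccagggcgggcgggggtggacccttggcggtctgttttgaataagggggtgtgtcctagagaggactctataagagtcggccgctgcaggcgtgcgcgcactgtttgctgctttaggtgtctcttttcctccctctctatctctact
Ntsr2: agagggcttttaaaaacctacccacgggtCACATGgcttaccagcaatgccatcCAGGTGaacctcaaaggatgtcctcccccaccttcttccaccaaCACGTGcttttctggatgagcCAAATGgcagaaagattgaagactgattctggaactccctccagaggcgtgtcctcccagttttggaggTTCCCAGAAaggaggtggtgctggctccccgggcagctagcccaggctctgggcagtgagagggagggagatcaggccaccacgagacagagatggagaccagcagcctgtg
The Gfap window held 1 match to the STAT motif, the Ntsr2 window held 1 STAT match and 4 E-boxes, and the Id3 window held none of the motifs. Of all 32851 mouse windows of 300 bases, 8.30% held the STAT motif, 72.3% an E-box, 18.7% the SOX motif and 0.0365% the NFI motif. A match is a stretch of letters and not a known binding site.

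None of the 10 astrocyte markers passed the test between UBB+1 tg and wild-type mice. Each gene was represented by its MOE430A probe set with the highest mean, also where it had a probe set on MOE430B. On these, 2 markers were higher in UBB+1 tg mice (Aqp4 and Fgfr3) and 8 were lower. Values are RMA intensities (the summarised brightness of a probe set) on the log2 scale, and differences are UBB+1 tg minus wild type. The differences ranged from 0.42 for Aqp4 to -0.34 for Id3, and their median was -0.17, against 0.0083 over the 12392 genes of MOE430A taken in the same way. Over those genes 47.6% had a difference below 0. In limma with the Benjamini-Hochberg adjustment over all probe sets of an array, 0 of the 19 probe sets passed a false discovery rate of 10%, and adjusted p-values lay between 0.984 and 1. The same test called 0 of 22625 probe sets (0%) on MOE430A and 0 of 22511 (0%) on MOE430B. At an unadjusted p under 0.05 it gave 788 (3.48%) and 687 (3.05%) probe sets over the whole arrays, and 1 of the 19 marker probe sets, Sox9 1451538_at. UBB+1 tg and wild-type mice overlapped in all 19 probe sets, while 0.234% of all probe sets on MOE430A and 0.142% on MOE430B had genotypes that did not overlap. No change of a marker was thus called in either direction. In tissue of several cell types, the number of astrocytes and the RNA per astrocyte cannot be told apart.

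**Figure D1:**
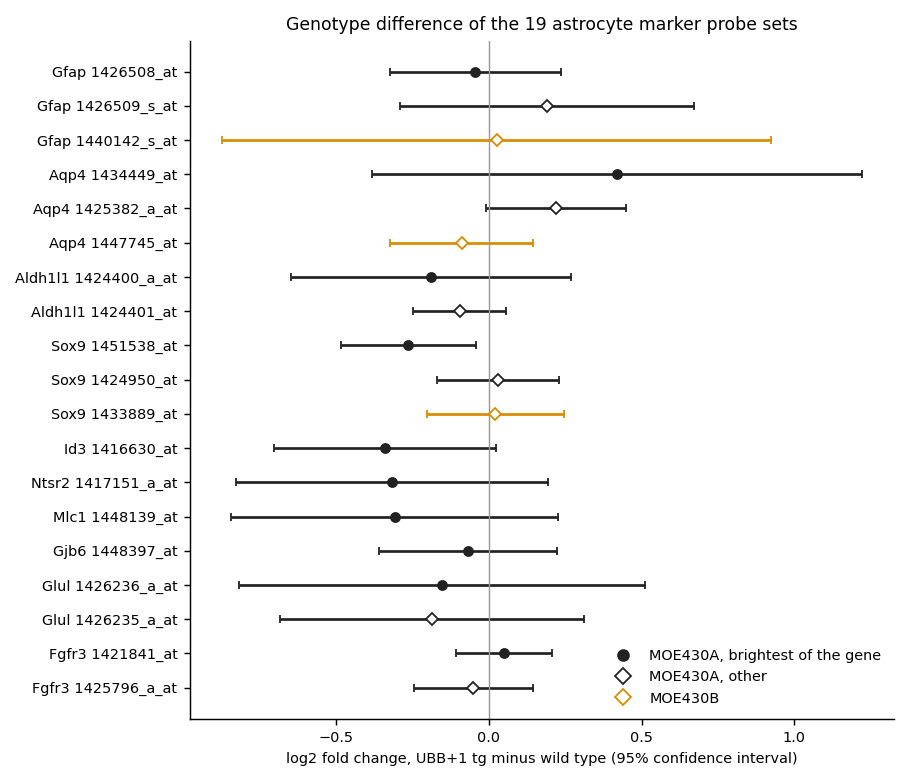
Difference between UBB+1 tg and wild-type mice (log2 scale, x axis) for each of the 19 probe sets of the 10 astrocyte markers (y axis), with the 95% confidence interval from limma as the bar. Filled circles are the brightest MOE430A probe set of a gene and open symbols the other probe sets of both arrays. The interval of Sox9 1451538_at lies below 0, from -0.48 to -0.04, and those of the other 18 probe sets cross 0.

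The 95% confidence intervals of 6 of the 10 markers held a change of 1.5-fold, none of them in both directions. For Aqp4 this was a rise, and its interval also held a 2-fold rise. For Id3, Ntsr2, Mlc1, Aldh1l1 and Glul it was a fall. Changes of this size and direction were thus not excluded by the values. The interval of the MOE430B probe set of Gfap, 1440142_s_at, was -0.87 to 0.92 and held 1.5-fold in both directions. The SD of the markers over the 11 mice of both genotypes ranged from 0.09 for Fgfr3 to 0.67 for Aqp4 with a median of 0.35, against a median of 0.23 over all genes of MOE430A, and it was under 0.23 for Fgfr3, Sox9, Gfap and Gjb6.

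Gfap gave differences close to 0 or within their error on all of its probe sets. On 1426508_at the UBB+1 tg mice tg270, tg271, tg273, tg274, tg276 and tg277 were at 6.85, 6.73, 6.88, 6.63, 6.39 and 6.41. The mice wt287, wt289, wt290, wt291 and wt321 were at 6.83, 6.87, 6.86, 6.49 and 6.41. The genotypes thus covered almost the same range, and the lowest and the highest value were both from UBB+1 tg mice. The difference was -0.04 (SE 0.13, 95% interval -0.32 to 0.24), and it turned to 0.03 in a fit with the array sets, described later, as a block. The second probe set, 1426509_s_at, differed by 0.19 (SE 0.22) and the MOE430B probe set 1440142_s_at by 0.03 (SE 0.42). The latter had the widest range of all 19 probe sets, from 6.25 in mouse tg271 to 9.14 in mouse tg277, with the wild-type mice between 7.54 and 8.69. Without mouse tg271 its difference was 0.43 (SE 0.23). It was also the brightest probe set of Gfap, at the 93.9th percentile of level on MOE430B, where 1426508_at was at the 56.7th on MOE430A. Results for Gfap as a marker below are those of 1426508_at unless another probe set is named.

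Sox9, a transcription factor that astrocytes keep expressing in the adult brain, had the smallest p of the markers. On 1451538_at the UBB+1 tg mice were at 5.29, 5.25, 5.39, 5.46, 5.46 and 5.46, in the order of mice given for Gfap. The wild-type mice were at 5.64, 5.39, 5.49, 5.78 and 5.93. All 6 UBB+1 tg mice were below the mean of the wild-type mice, 5.65 ± 0.22 (SD, n = 5), but the UBB+1 tg mice reached 5.46 and the lowest wild-type mouse, wt289, was at 5.39. Because MOE430A values were deposited as whole numbers on the linear scale, several mice share a value. The difference was -0.26 (SE 0.10), a 0.833-fold level (95% interval 0.715 to 0.970), with an unadjusted p of 0.0232 and an adjusted p of 0.984 in limma. An exact permutation test over the 462 splits of the mice, two-sided, gave p = 0.0238, unadjusted. The other Sox9 probe sets did not show this difference. 1424950_at, whose mean was below the 25th percentile of the array, differed by 0.03 (SE 0.09), and 1433889_at on MOE430B by 0.02 (SE 0.10). By level, 1451538_at was at the 31.8th percentile of MOE430A and 1433889_at at the 48.4th of MOE430B.

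Id3, an inhibitor of basic helix-loop-helix transcription factors, had the largest difference below 0. Its probe set was at the 26.5th percentile of level on MOE430A. The UBB+1 tg mice were at 5.13, 5.21, 5.17, 5.17, 4.86 and 4.91 and the wild-type mice at 5.98, 4.86, 5.29, 5.43 and 5.52. Of the 5 wild-type mice 4 were above every UBB+1 tg mouse, and the remaining wild-type mouse, wt289, was as low as the lowest UBB+1 tg mouse. The difference was -0.34 (SE 0.17, 95% interval -0.70 to 0.02), with p = 0.0646 in limma, adjusted 0.984, and p = 0.0671 in the exact permutation test. Without mouse wt287, the highest, it was -0.20. Of the related genes, Id1 differed by 0.04 (SE 0.14), Id2 by -0.02 (SE 0.28) and Id4 by -0.15 (SE 0.35). Other probe sets gave -0.07 and 0.05 for Id2 and -0.03 and 0.23 for Id4.

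The receptors were Ntsr2, a neurotensin receptor, and Fgfr3, a fibroblast growth factor receptor. Ntsr2 was at 9.04, 9.46, 9.45, 9.33, 8.54 and 8.91 in UBB+1 tg mice and at 9.72, 8.65, 9.85, 9.66 and 9.30 in wild-type mice. The highest 3 values were from wild-type mice, but mouse wt289 was the second lowest of all, after mouse tg276. The difference was -0.32 (SE 0.23, 95% interval -0.83 to 0.19), with an adjusted p of 0.984 in limma. It was -0.51 without mouse wt289 and -0.20 without mouse tg276. Fgfr3 varied least, from 7.30 to 7.61 in UBB+1 tg and from 7.38 to 7.57 in wild-type mice, and differed by 0.05 (SE 0.07) on 1421841_at and -0.05 (SE 0.09) on 1425796_a_at.

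Among the membrane and junction genes, Aqp4, the water channel of astrocyte endfeet, had the largest difference and the largest spread. On 1434449_at the UBB+1 tg mice were at 7.03, 5.17, 6.00, 6.94, 5.75 and 6.29 and the wild-type mice at 5.21, 5.73, 5.52, 6.81 and 5.61. The genotypes covered almost the same range, and the mean of the wild-type mice was exceeded in 4 of the 6 UBB+1 tg mice. The difference was 0.42 (SE 0.37, 95% interval -0.38 to 1.22), a 1.34-fold level, with an adjusted p of 0.984 in limma and p = 0.316 in the exact permutation test. It fell to 0.25 without mouse tg270 and was 0.68 without mouse wt291. Aqp4 1425382_a_at, also below the 25th percentile of the array, differed by 0.22 (SE 0.10, unadjusted p = 0.0590 in limma), and 1447745_at on MOE430B by -0.09 (SE 0.11). The markers were chosen with earlier results of these data known, so the direction of Aqp4 here is not independent evidence.

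Mlc1, a membrane protein of astrocyte endfeet, was at 5.32, 6.09, 5.75, 5.93, 5.81 and 6.43 in UBB+1 tg mice and at 6.27, 5.43, 6.66, 6.66 and 5.98 in wild-type mice. In each genotype the lowest mouse was that of the high array set described later, tg270 and wt289, and without these the difference of -0.31 (SE 0.24) was -0.39 (SE 0.18). It was -0.20 without tg270, -0.50 without wt289 and -0.19 without wt290 or without wt291. Gjb6, which encodes the gap junction protein connexin 30, was at 6.29, 5.88, 6.29, 6.34, 6.34 and 6.29 in UBB+1 tg mice and at 6.34, 6.02, 6.02, 6.51 and 6.63 in wild-type mice. Of the UBB+1 tg mice 5 lay within 6.29 to 6.34, while the wild-type mice spread above and below them. The difference was -0.07 (SE 0.13). It was 0.0028 without mouse tg271 and 0.01 without mouse wt321.

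The enzymes were Glul, glutamine synthetase, which turns transmitter glutamate into glutamine, and Aldh1l1, a dehydrogenase of folate metabolism. Glul 1426236_a_at was at 11.05, 9.87, 9.56, 9.33, 9.63 and 9.18 in UBB+1 tg mice and at 9.75, 10.51, 9.70, 9.96 and 9.70 in wild-type mice. The highest mouse of each genotype was again tg270 or wt289. The difference was -0.15 (SE 0.30), and it was -0.41 without mouse tg270 and -0.0088 without mouse wt289. The second probe set, 1426235_a_at, differed by -0.19 (SE 0.23), with mouse wt289 now the lowest of all. Aldh1l1 1424400_a_at ranged from 6.15 to 7.45 in UBB+1 tg and from 6.58 to 7.12 in wild-type mice and differed by -0.19 (SE 0.21). This was -0.34 without mouse tg273 and -0.08 without mouse tg277. Aldh1l1 1424401_at differed by -0.10 (SE 0.07).

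**Figure D2:**
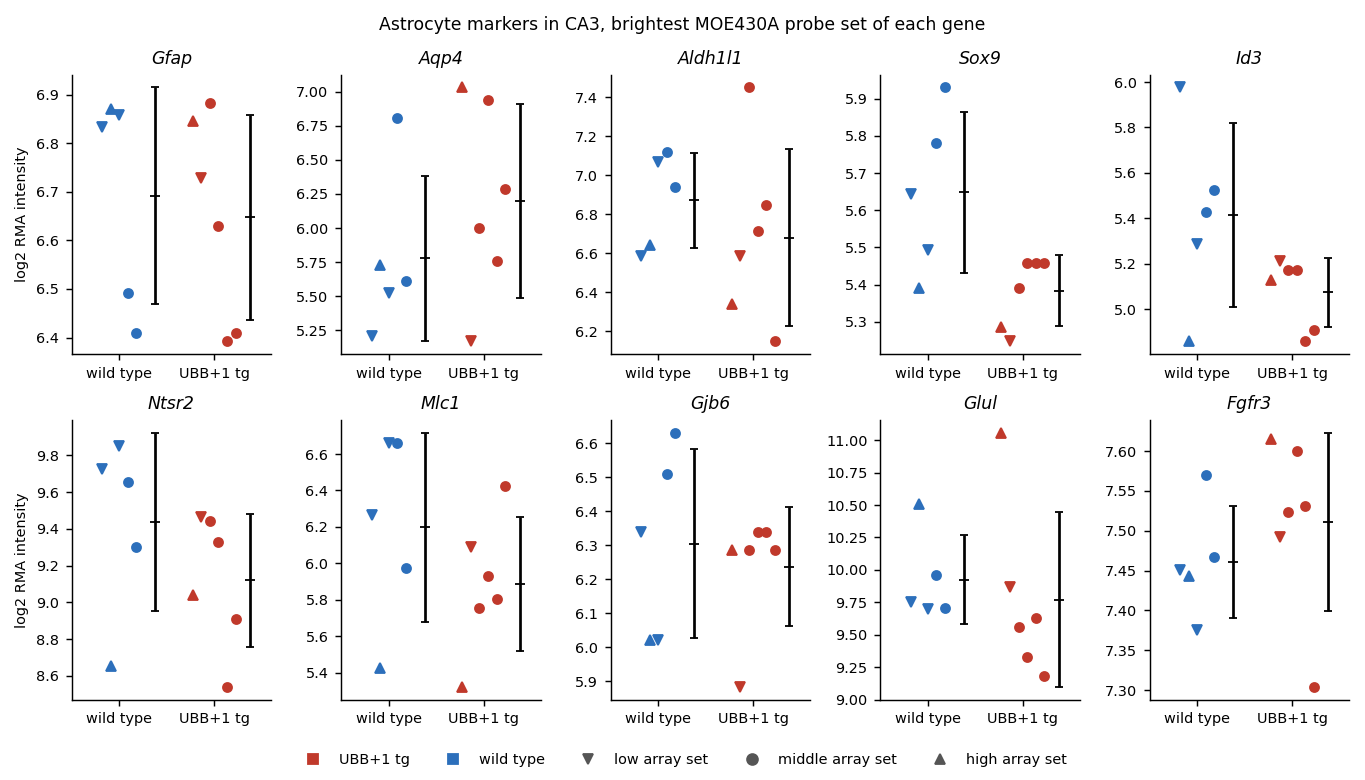
Log2 RMA intensity (y axis) of the brightest MOE430A probe set of each of the 10 astrocyte markers in the 5 wild-type (blue) and 6 UBB+1 tg (red) mice, each point a mouse and each bar the mean and SD of the genotype. The shape of a point gives the array set, and the scale differs between panels. The genotypes overlap in every panel, and the 6 UBB+1 tg mice of Sox9 and Id3 lie below the wild-type mean.

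The mice fell into 3 sets by their arrays, and many of the markers differed between these sets. The sets came from clustering the arrays on all probe sets, and they followed the 3'-5' difference, the log2 signal of the 3' minus the 5' control probe sets of Gapdh and Actb, which rises as RNA is shorter or amplification less complete. On MOE430A this difference was 2.65 to 3.43 in the low set (mouse tg271, mice wt287 and wt290), 4.44 to 4.62 in the middle set (the other mice) and 6.05 to 6.10 in the high set (mice tg270 and wt289). The sets are samples and not conditions, and each held mice of both genotypes. The mice of the low and the high set did not overlap in 8 of the 16 marker probe sets on MOE430A, where 41.6% of all probe sets did the same, and in 1 of 3 on MOE430B, where it was 32.8%. A share of this size was thus also found over the whole arrays.

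The markers differed between the sets in opposite directions, also within a gene. Mean levels in the low, middle and high set were 6.34, 6.09 and 5.37 for Mlc1, 9.68, 9.20 and 8.85 for Ntsr2 and 5.49, 5.18 and 4.99 for Id3, each lower from set to set. They were 5.30, 6.23 and 6.38 for Aqp4 1434449_at. Glul 1426236_a_at was highest in the high set with 9.77, 9.56 and 10.78, whereas Glul 1426235_a_at was lowest there, with 8.04, 7.49 and 7.15. The part of RNA quality in the differences between genotypes was not tested beyond the following values. In a fit that held the array set constant, the difference was -0.33 (SE 0.08) for Sox9, -0.30 (SE 0.15) for Id3, -0.24 (SE 0.19) for Ntsr2 and 0.23 (SE 0.30) for Aqp4. Within the low, middle and high set, UBB+1 tg minus wild type was -0.32, -0.41 and -0.11 for Sox9 and -0.42, -0.45 and 0.27 for Id3. It was -0.20, 0.03 and 1.31 for Aqp4 1434449_at, with 1 mouse of each genotype in the high set, and the difference without the high set was 0.24 (SE 0.40). For Aqp4 1425382_a_at it was 0.31, 0.21 and 0.05.

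**Figure D3:**
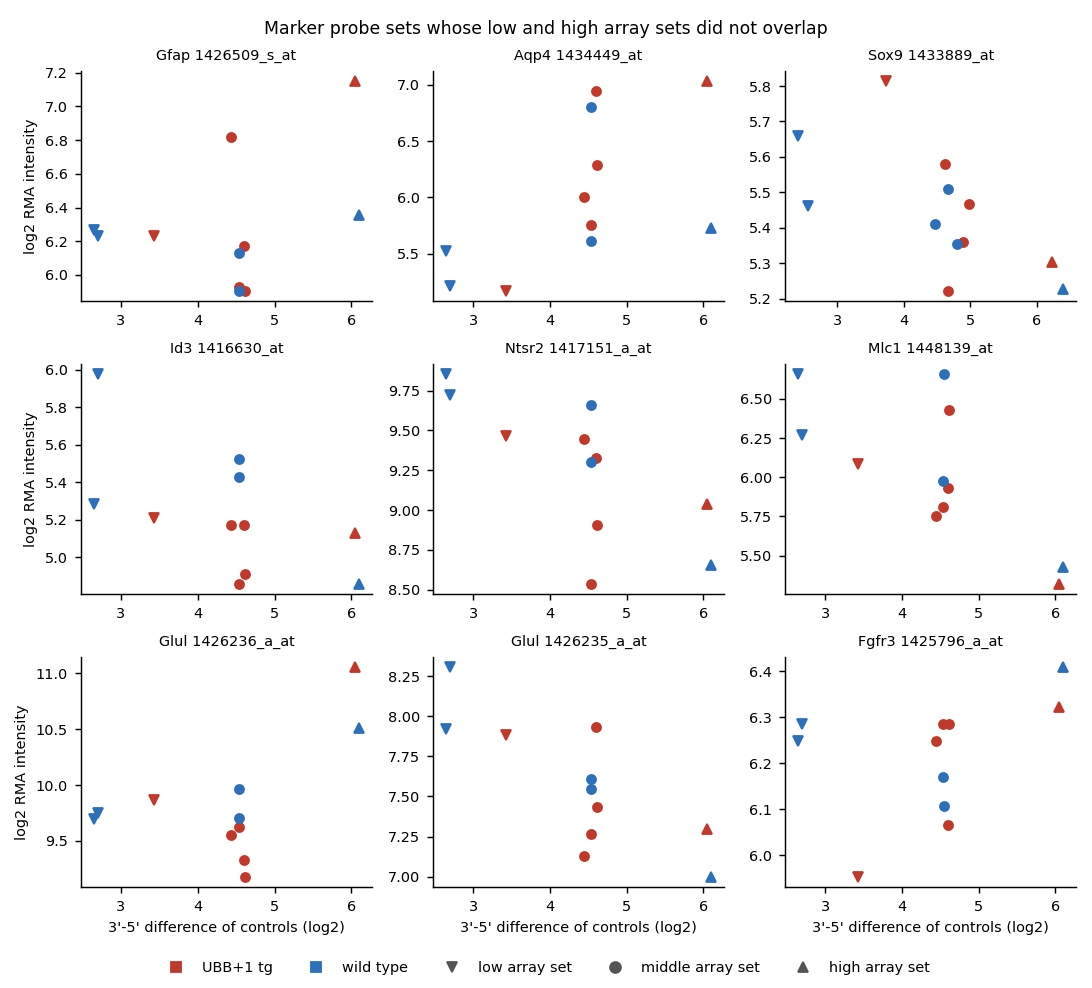
Log2 RMA intensity (y axis) of the 9 marker probe sets in which the low and the high array set did not overlap, against the 3'-5' difference of the control probe sets on the log2 scale (x axis), each point a mouse. UBB+1 tg mice are red and wild-type mice blue, with triangles for the low (down) and high (up) set and circles for the middle set. The 2 probe sets of Glul run in opposite directions, from a mean of 9.77 to 10.78 and from 8.04 to 7.15.

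Between mice the 10 markers varied together only in part. Over the 11 mice of MOE430A, Pearson r of the 45 pairs of markers ranged from -0.59 to 0.78 with a median of 0.12, and Spearman rho had a median of 0.12. Of the pairs, 27 had r above 0 and 5 (11.1%) above 0.5, where 11.4% of all pairs of genes on the array were above 0.5 and the median was 0.0088. Permutation tests of the 45 pairs gave 3 with p under 0.05 for r and 4 for rho, and none after the Benjamini-Hochberg adjustment over the pairs, with the lowest at 0.113 and 0.120. These values changed with the array sets. Among the 6 mice of the middle set the median r was 0.35 and 14 of the 45 pairs (31.1%) were above 0.5, where 17% of all pairs of genes were. In residuals from the array set means, over all 11 mice, the median r was 0.31 and 8 pairs (17.8%) were above 0.5, where 9.8% of all pairs of genes were. The low and the high set hold too few mice for a correlation of their own. Pairs share genes and mice, so that these shares are a description.

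**Figure D4:**
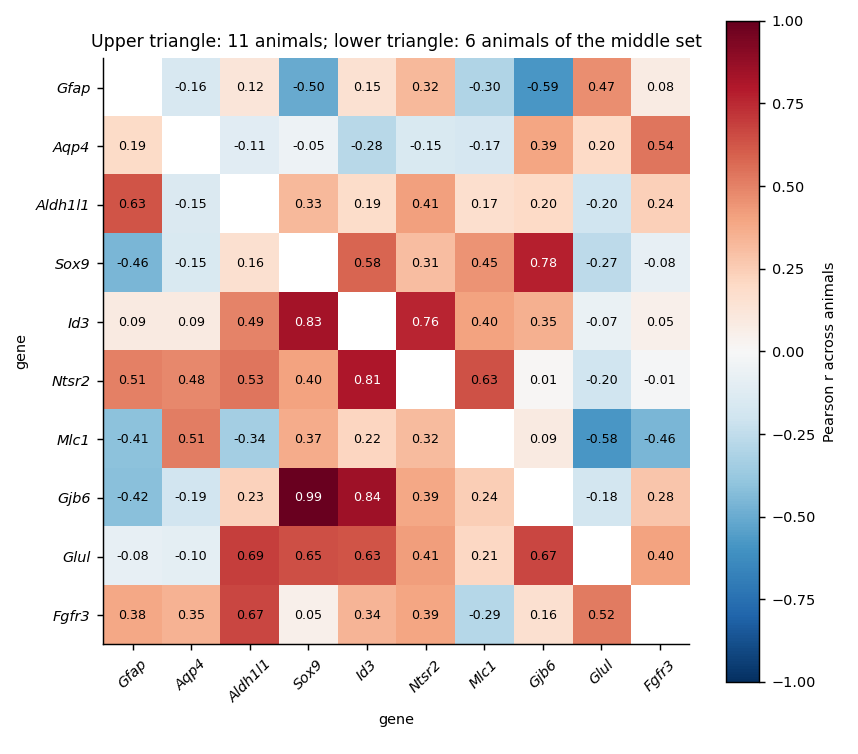
Pearson r between the levels of each pair of the 10 astrocyte markers (both axes list the genes), over the 11 mice of MOE430A above the diagonal and over the 6 mice of the middle array set below it, coloured from -1 (blue) to 1 (red). Sox9 and Gjb6 have r = 0.78 over all mice and 0.99 in the middle set, and Gfap and Gjb6 have -0.59 over all mice.

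Sox9 and Gjb6 were the most alike pair. Over 11 mice r was 0.78 (permutation p = 0.00503, adjusted 0.113) and rho 0.75 (p = 0.00869, adjusted 0.196). Without mice wt291 and wt321, the farthest from the median of Sox9, r was 0.48, so that the relation rested in part on these mice. In the middle set, which holds both, r was 0.99 (exact permutation p = 0.0167, n = 6), and in residuals from the array sets it was 0.80. Wild-type mouse wt321 was the highest of all mice in both genes and mouse wt291 the second highest.

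Id3 and Ntsr2 followed with r = 0.76 (permutation p = 0.00470, adjusted 0.113) and rho = 0.82 (p = 0.00267, adjusted 0.120). Without mice wt321 and wt287, the farthest from the median of Id3, r was 0.93, and without wt289 and tg276, the farthest from that of Ntsr2, it was 0.63. It was 0.81 in the middle set (exact permutation p = 0.0556, n = 6) and 0.63 in residuals from the array sets. Sox9 and Id3 had r = 0.58 over all mice (adjusted p = 0.474, permutation test) and 0.83 in the middle set, and Id3 and Gjb6 had 0.35 and 0.84. In the middle set wt291 and wt321 were the highest in Sox9, Id3 and Gjb6, while the 4 UBB+1 tg mice were ordered differently in Sox9 and Id3, and rho was 0.65 for Sox9 and Id3 and 0.69 for Id3 and Gjb6. Of these 6 mice 2 were wild-type, and the part of genotype in these pairs cannot be read from them alone. In residuals from genotype and array set r was 0.89 for Sox9 and Gjb6, 0.72 for Sox9 and Id3 and 0.54 for Id3 and Ntsr2.

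Ntsr2 and Mlc1 had r = 0.63 (permutation p = 0.0383, adjusted 0.474) over all mice, but 0.32 in the middle set. Aqp4 and Fgfr3 had r = 0.54, 0.16 without mice tg270 and tg274 and 0.77 without mice tg270 and tg277, the farthest from the medians of Aqp4 and of Fgfr3. Gfap, the marker most used in sections, had no r above 0.5 with another marker over all mice, but in the middle set it had r = 0.63 with Aldh1l1 and 0.51 with Ntsr2. Its median r with the other 9 over all mice was 0.08, and its lowest were with Gjb6 (r = -0.59) and Sox9 (r = -0.50), adjusted p = 0.474 and 0.661 in permutation tests. Mlc1 and Glul had r = -0.58 but rho = -0.24, and r = 0.21 in the middle set.

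Probe sets of the same gene were in large part not alike across mice. Among the 12 pairs of probe sets of 1 gene, 6 had r above 0 and 6 below 0 over the 11 mice on both arrays, with a median of 0.04. The Gfap pair on MOE430A, 1426508_at and 1426509_s_at, was the exception, with r = 0.74 (permutation p = 0.00318, adjusted 0.0382) and rho = 0.92 (p = 0.00023, adjusted 0.00276), r = 0.98 in the middle set and 0.65 without the 2 mice farthest from the median. It was the only pair to pass the adjustment over the 12. The MOE430B probe set of Gfap had r = -0.48 with 1426508_at and -0.12 with 1426509_s_at. The Glul pair had r = -0.34 and the Fgfr3 pair -0.29, and Sox9 1451538_at had 0.53 with 1424950_at and -0.03 with 1433889_at. A correlation between markers therefore holds for the probe sets named and not for every probe set of the gene.

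**Figure D5:**
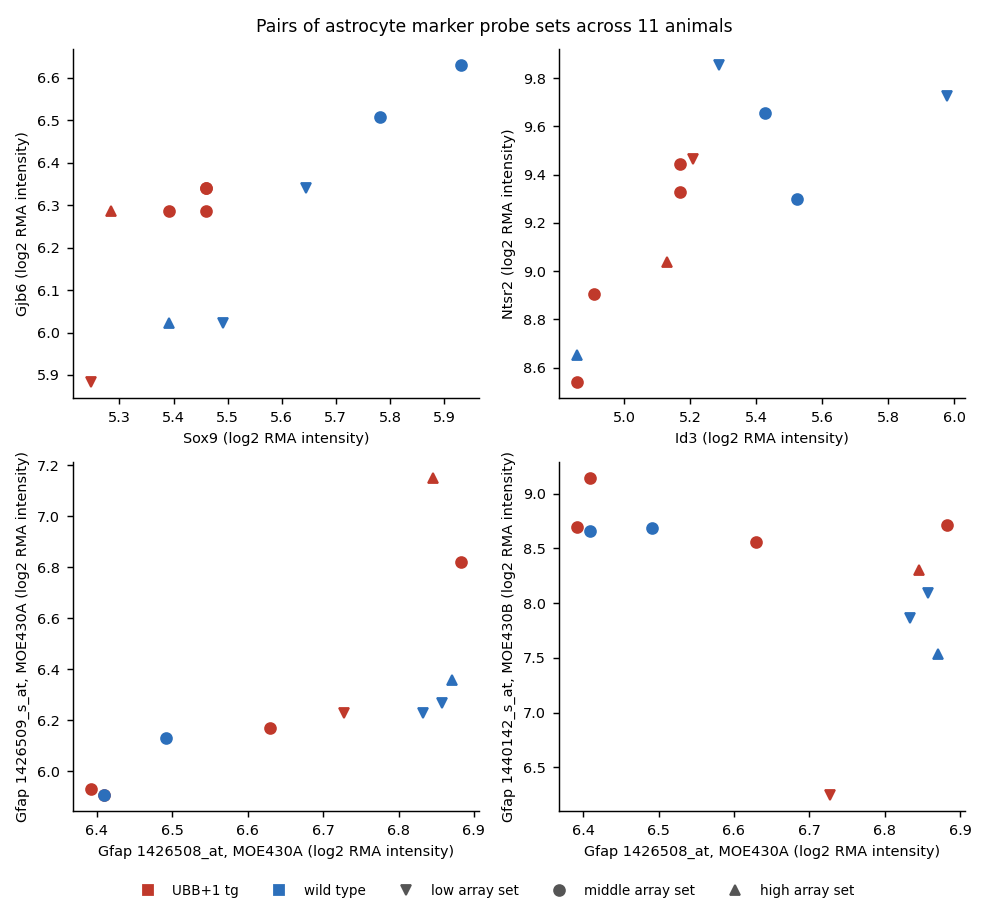
Log2 RMA intensities of pairs of probe sets in the 11 mice on both arrays, each point a mouse, for Sox9 and Gjb6, Id3 and Ntsr2, the pair of Gfap probe sets on MOE430A, and Gfap 1426508_at against its MOE430B probe set. Colours give the genotype and shapes the array set, and mice with equal values hide each other. Pearson r is 0.78, 0.76, 0.74 and -0.48.

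Genes most like Gfap 1426508_at over the 11 mice were Aplp1 (r = 0.97), a neuronal relative of the amyloid precursor protein, Rnf123 (0.96) and Ubqln4 (0.95), which encode a ubiquitin ligase and a ubiquilin, Sh3pxd2a (0.95) and Nos1 (0.94), the neuronal nitric oxide synthase. They were the highest of 12391 genes, and no p is given because they were picked for their r. Gfap 1426508_at itself differed between the array sets, with means of 6.81, 6.54 and 6.86 in the low, middle and high set. These r were taken over all sets, and the part of the array sets in them was not tested. The other 9 markers ranked from 2673 (Glul) to 11186 (Gjb6) in this order. Against the mean of the standardised levels of the 10 markers, the highest were Vmn1r13 (r = 0.95), Krt8 (0.93), Creb3l4 (0.88), Timp4 (0.87) and Fam187a (0.83). Of these, Vmn1r13, Creb3l4 and Fam187a had mean levels below the 25th percentile of the array. The mean of the markers was highest in mouse wt291, in which 9 of the 10 were above their mean, and lowest in mouse tg277, in which 3 were.

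Other genes of astrocytes were split evenly between the directions. Of 64 further genes of astrocytes 62 were measured, 31 of them higher and 31 lower in UBB+1 tg mice, with a median difference of -0.0027 and none past the false discovery rate. At an unadjusted p under 0.05 there was 1, Agt, the precursor of angiotensin, at -0.21 (SE 0.08, unadjusted p = 0.0258, adjusted 0.984 in limma). Next by p were Nfib, a transcription factor of the nuclear factor I family, at 0.47 (SE 0.22), Bcan, the matrix proteoglycan brevican, at -0.45 (SE 0.26), and Nfe2l2, which encodes the oxidative stress factor NRF2 and was below the 25th percentile of the array, at 0.32 (SE 0.20). The transporters Slc1a2 and Slc1a3, which clear glutamate, differed by 0.12 (SE 0.15) and -0.08 (SE 0.13) on their brightest MOE430A probe sets. Other probe sets ranged from -0.37 to 0.26 for Slc1a2 and from -0.09 to 0.24 for Slc1a3, -0.07 to 0.75 for Nfib, and were at -0.37 for Bcan and -0.00 for Nfe2l2. These transporters and Id1, Id2 and Id4 above were named after their values were seen.

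Genes of reactive astrocytes were likewise split. Of 40, 35 were measured, 17 higher and 18 lower, with a median of -0.0043 and none past the false discovery rate. In limma Iigp1, an interferon-induced GTPase below the 25th percentile of the array, was at 0.29 (SE 0.13, unadjusted p = 0.0389). Psmb8, a subunit of the immunoproteasome, was at -0.51 (SE 0.22, unadjusted p = 0.0450 in limma). Both had an adjusted p of 0.984 and were the only genes of the list with an unadjusted p under 0.05 in limma. S100a10 was at -0.54 (SE 0.27) and the sphingosine phosphate receptor gene S1pr3 at 0.11 (SE 0.06). On other probe sets Iigp1 was at 0.01, Psmb8 at -0.29, S100a10 at -0.31 and 0.05 and S1pr3 at 0.10 and 0.52. Vim, the other filament gene of reactive astrocytes, was at 0.05 (SE 0.17) and on other probe sets at -0.08 and -0.09. This gene too was named after its value was seen.

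Markers of other cells in the cut tissue were measured in both genotypes. Summed on the linear scale, the 10 astrocyte markers ranged from 1691 to 3368 in UBB+1 tg and from 2167 to 2626 in wild-type mice. Such a sum is weighted to bright genes. The highest was from mouse tg270, in which Glul 1426236_a_at was at 11.05 (log2). Mean sums in the low, middle and high array set were 2376, 2088 and 2926 for these markers. For the genes of neurons they were 16291, 20037 and 17507, and for those of microglia 2758, 3908 and 3006. The part of the array sets in the sums was not tested. Sums were taken over the genes on MOE430A only. For the 11 such genes of oligodendrocytes they ranged from 8312 to 12233 and from 7886 to 10275, and over all 13 measured genes of that list 11 were higher and 2 lower, with a median difference of 0.04. For the 11 of neurons they ranged from 17148 to 21921 and from 14394 to 19024, and of all 12 measured 6 were higher and 6 lower, with a median of -0.05. For the 11 of microglia they ranged from 2795 to 4141 and from 2245 to 4683, with 5 of 12 measured genes higher and 7 lower. They ranged from 1026 to 1373 and from 1009 to 1310 for the 10 of endothelial cells, with 5 genes higher and 5 lower, and from 334 to 630 and from 349 to 504 for the 6 of choroid plexus and ependyma, with 5 of 9 measured genes higher and 4 lower. None of these genes had an unadjusted p under 0.05 in limma, and the sums of the genotypes overlapped for every list. Of the defining markers, Mbp and Mog (oligodendrocytes) differed by 0.21 (SE 0.11) and 0.03 (SE 0.22), and Snap25 (neurons) by 0.37 (SE 0.24). C1qa, Cx3cr1 and Csf1r (microglia) differed by -0.43 (SE 0.35), 0.18 (SE 0.25) and 0.22 (SE 0.30), and Cldn5 and Pecam1 (endothelial cells) by -0.26 (SE 0.33) and -0.14 (SE 0.08). These are values of the brightest MOE430A probe set of each gene, and the sign was not always shared by the others. On other probe sets Csf1r differed by -0.19 (SE 0.19) and -0.09 (SE 0.13), Cx3cr1 by -0.08 (SE 0.07) and Mbp by -0.01 to 0.23. Snap25 differed by -0.16 (SE 0.34) on MOE430B. Ttr, made by the choroid plexus, differed by -0.14 (SE 0.28) on its brightest MOE430A probe set, 1451580_a_at, where the mice ranged from 7.21 to 8.68. On its other 3 probe sets it differed by -1.17 (SE 1.33), -1.32 (SE 1.15) and -1.44 (SE 0.95), and on the first of these, 1454608_x_at, the mice ranged from 4.46 to 11.33. The part of these cells in the marker values was not tested.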

How the data were processed

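The arrays were Affymetrix MOE430A and MOE430B, which carry 1 colour and give brightness per probe set. The authors computed RMA values (background correction, quantile normalization and summary per probe set) for each array kind. They deposited them as intensity in whole numbers on MOE430A, converted here to log2, and as log2 values on MOE430B. The RMA version is not given in the sources used here, and the labels and the methods name different versions of the RNA kit. Genotypes and mouse numbers came from the labels. In the array annotation used for names, 1 gene is given for 20379 probe sets of MOE430A and 14661 of MOE430B, several genes for 691 and 245, and no gene for 1555 and 7605. The 64 control probe sets of each array were left out, and on MOE430A 1 further probe set that reads the promoter of the transgene, which the methods also leave out and which served only to check the labels. Medians of the arrays lay between 6.32 and 6.34 on MOE430A and between 5.49 and 5.50 on MOE430B. Precision is set by how many arrays there are.

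The genotypes were compared with lmFit and eBayes of limma 3.58.1 (R 4.3.3) per array kind, Benjamini-Hochberg adjusted, at the false discovery rate of 10% of the study's own limma check. The study called genes with the ChipInspector software and reports that its limma check bore the results out, whereas 0 probe sets passed here. The script was tested on simulated data. Single genes had exact permutation tests, and correlations 100000 permutations (exact within the middle set). The tests of markers counted splits by the absolute difference of means, whereas the label check doubled the smaller tail. A gene was represented by its brightest MOE430A probe set, or by its brightest on MOE430B where it had none on MOE430A. The array sets are 3 clusters (complete linkage on 1 minus Pearson r). Alternatives covered normalization, dim probe sets, the variance model, array weights, RNA quality, the array sets, averaged probe sets and leaving out each mouse. Named genes are the 10 markers, the 4 genes of smallest p of each astrocyte list, the 5 genes of highest r and the defining markers of other cells. Nothing in the labels says whether samples shared a litter. The markers, the lists and the tests were chosen with earlier results of these data known.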

Additional observations from a re-analysis of the deposited data

Results flagged for a closer look

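In 4 of 40 groups of mice checked, 1 value lay apart from the others by Dixon's test at 95%, which flags about 1 group in 20 by chance. Values are log2 RMA intensities, each among 6 UBB+1 tg mice. Of these, 3 were from mouse tg271, the UBB+1 tg mouse of the low array set. Its Gfap 1440142_s_at on MOE430B was at 6.25, where the others lay between 8.30 and 9.14. Its Aqp4 1447745_at on MOE430B was at 5.29, where the others lay between 5.76 and 5.95. Its Gjb6 on MOE430A was at 5.88, where the others lay between 6.29 and 6.34. The fourth was Glul 1426236_a_at in mouse tg270, the UBB+1 tg mouse of the high array set, at 11.05, where the others lay between 9.18 and 9.87. In mouse tg271 the choroid plexus gene Ttr (1454608_x_at) was at 10.18, where the other UBB+1 tg mice lay between 4.64 and 7.89 and wild-type mice between 4.46 and 11.33. The part of Ttr-expressing tissue or of RNA quality in these values was not tested.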

How the results depend on the processing

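Under the alternatives run, no marker passed the false discovery rate, the lowest adjusted p of a marker was 0.473, and the median difference of the 10 markers stayed between -0.22 and -0.08. Of the alternative values of 13 probe sets, 26 had the opposite sign, all in 6 probe sets with differences near 0, and 7 probe sets had none. Gfap on MOE430A was at 0.032 with the array set as a block, 0.073 with its probe sets averaged and 0.041 without the low set, and between -0.12 and 0.0065 when single mice were left out. Gjb6 was at 0.015 with array weights and between -0.14 and 0.013 without single mice, and Fgfr3 at -0.0006 with its probe sets averaged. On MOE430B, Gfap was at -0.071 when the 3'-5' difference entered as covariate, -0.21 with the block and -0.12 without the high set (single mice left out: -0.15 to 0.43), Aqp4 at 0.016 with array weights and 0.028 without the low set (-0.12 to 0.0076), and Sox9 at -0.020 with array weights (-0.051 to 0.067). Over all probe sets of MOE430B, the calls went from 0 to 1 with the covariate, and were 0 to 1 with single mice left out (1 without mouse wt291). The median r of the marker pairs, 0.12, was 0.31 in residuals from the array sets, 0.28 in residuals from genotype and array set and 0.35 in the middle set, and 0.0078 to 0.18 without single mice (lowest without mouse tg277). The cause was not tested. Leaving out the high or the low set was added after the data were seen. No paired analysis was possible because the litters of the mice are not stated. Signal over background could not be judged, as the values hold no detection call.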
